A study of Mus musculus with 30 samples.

Results

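The Toll-like receptors described here are the 8 receptor genes Tlr1, Tlr2, Tlr3, Tlr4, Tlr6, Tlr7, Tlr9 and Tlr13, with the lipopolysaccharide co-receptor Cd14 and the adaptor Myd88. These 10 genes were found by symbol among 46078 genes of a count table from sorted mouse microglia, and all 10 were among the 13880 genes with enough counts to be tested. Toll-like receptors bind conserved microbial molecules and some products of damaged cells, and microglia, the resident macrophages of the brain and spinal cord, carry most of them. TLR2 pairs with TLR1 or TLR6 at the cell surface to bind bacterial lipopeptides. TLR4 binds lipopolysaccharide there with MD-2 and CD14. TLR3, TLR7, TLR9 and TLR13 sit in endosomes and bind double-stranded RNA, single-stranded RNA, unmethylated DNA and bacterial ribosomal RNA. Every one of these receptors but TLR3 signals through MyD88 to NF-κB; TLR3 uses the adaptor TRIF, which TLR4 can also use.

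The study compared microglia lacking the autophagy gene Atg7 with wild-type microglia and with microglia of old mice, in naive animals and in experimental autoimmune encephalomyelitis (EAE), a paralytic disease raised by immunisation with a myelin protein. The genotype given for KO is Atg7fl/fl Cx3cr1CreERT, that for WT is Atg7wt/wt Cx3cr1CreERT2, both on C57BL/6. The Cre acts in cells that express Cx3cr1, which border macrophages and monocytes do as well as microglia. The treatment note, which names these 2 genotypes and stands in the labels of every library, those of old mice included, gives 3 doses of 4 mg tamoxifen 48 h apart, with EAE raised at least 18 days later by rmMOG and pertussis toxin. Old mice were labelled Atg7 wild type and aged, and their Cre status was not stated. The sort kept live CD11b+ CD45int Ly6G- cells, eYFP+ cells, or both, and cells of female and male mice were pooled in equal parts. The 30 libraries fell into 8 groups: 4 naive KO, 4 naive old, 4 naive WT, 4 KO and 3 WT at day 21 of EAE, and 4 KO, 3 old and 4 WT at day 35. The labels did not say whether the libraries of a group came from separate mice, so the p-values measure the spread between libraries, which may be technical.

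Total counts were 4712803 to 11034565 per library (median 6769302), and levels are CPM, that is counts per 1000000 of the library total, scaled by TMM factors. Atg7 did not separate the genotypes at gene level: its CPM averaged 20.2 ± 8.62 in naive KO and 31.6 ± 6.32 in naive WT libraries, and 32.5 ± 1.54 in day 35 KO against 22.6 ± 1.41 in day 35 WT libraries (SD, n = 4 each), with an adjusted p of 0.516 and 0.338. Reads summed over all of Atg7 do not reveal a deleted exon, and KO below means libraries labelled KO. Day 35 WT library 3 carries a WT title but the entry KO under knockout status, and was kept with its title. The microglial markers P2ry12 and Tmem119 were above 0 in all libraries, while Cx3cr1, the gene at which the Cre was inserted, averaged 168.8 CPM in naive KO against 2574 CPM in naive WT libraries. The summed CPM of 7 microglial markers was 14865 to 15513 in naive KO, 16065 to 18542 in naive old, 12534 to 20042 in naive WT, 4894 to 5481 in day 21 KO, 10331 to 11893 in day 21 WT, 7671 to 11193 in day 35 KO, 5593 to 13829.5 in day 35 old and 9982 to 15158 in day 35 WT libraries. The sum of 10 neutrophil markers, from cells that a Ly6G- gate should remove, ran from 114.7 to 2574 in naive KO, 6852 to 13042 in naive old, 1524 to 16265 in naive WT, 51.2 to 101.05 in day 21 KO, 7.32 to 29.3 in day 21 WT, 117 to 3294 in day 35 KO, 71.8 to 31662 in day 35 old and 4.38 to 39.0 in day 35 WT libraries. The highest of these, day 35 old library 1, also held 4502 CPM of monocyte markers and the lowest microglial sum of its group, and day 35 KO library 4 likewise held the highest neutrophil and the lowest microglial sum of its own group. EAE scores were 2.75 to 3 in day 21 KO, 2 to 3 in day 21 WT, 2.5 to 3 in day 35 KO, 2.75 to 3 in day 35 old and 1 to 1.5 in day 35 WT mice, so that at day 35 genotype or age cannot be told apart from severity.

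**Figure D1:**
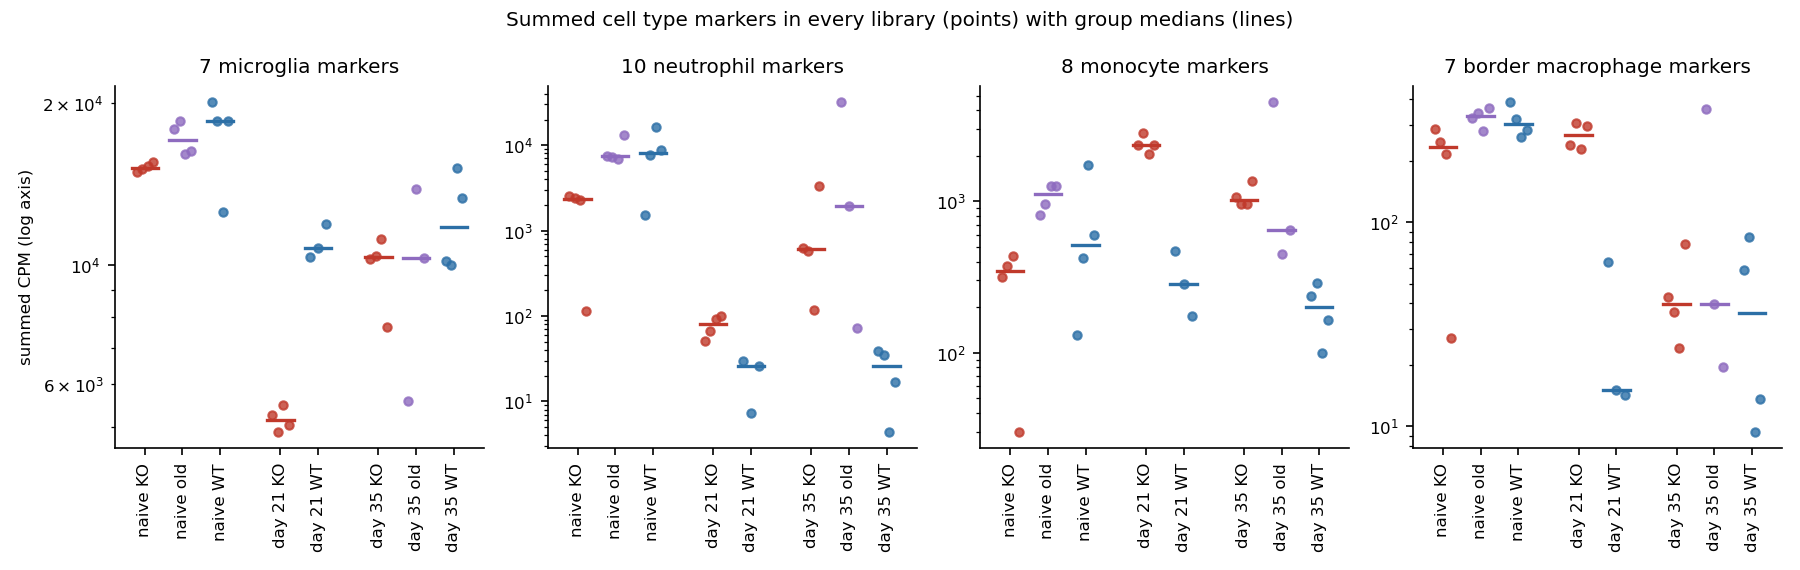
Summed CPM (log axis) of marker genes of microglia, neutrophils, monocytes and border macrophages in each of the 30 libraries, by group; points are libraries and lines group medians. Neutrophil markers reach 31662 CPM in 1 day 35 old library and stay at or under 39.0 CPM in the 4 day 35 WT libraries, and microglial markers are lowest in the 4 day 21 KO libraries.

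The genes lie on 7 chromosomes of GRCm38 (GENCODE M21). Tlr1 (ENSMUSG00000044827, chr5:64924679-64933563) and Tlr6 (ENSMUSG00000051498, chr5:64952031-64960097) are neighbours on the minus strand of chromosome 5. They share 454 stretches of 50 bases, which is 13.6% of those in the exons of Tlr1 and 12.3% of those in Tlr6, the 1 pair of 45 that shares any, so reads from these stretches could be split between them and both counts are to that extent uncertain. Tlr2 (ENSMUSG00000027995) lies at chr3:83836272-83841767, Tlr4 (ENSMUSG00000039005) at chr4:66827584-66930284, Tlr3 (ENSMUSG00000031639) at chr8:45395665-45411080 and Tlr9 (ENSMUSG00000045322) at chr9:106222598-106226883. Tlr7 (ENSMUSG00000044583, chrX:167304929-167330558) and Tlr13 (ENSMUSG00000033777, chrX:106143204-106160493) are X-linked, and female and male RNA was unevenly balanced between the pools, with Xist at 59 to 2045 CPM. Myd88 (ENSMUSG00000032508, chr9:119335934-119341411, minus strand) overlaps Slc22a14 on its own strand and Acaa1a on the other, so its count can hold reads of these genes; the other 9 overlap no annotated gene. No member was near the counting floor: the lowest raw count in any library was 129, for Tlr6, and the highest 4143, for Tlr7.

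Promoter windows from RefSeq (GRCm38.p6) run from 250 bases before to 50 bases after a gene's start, and those of 7 of the 10 genes were searched. Tlr4 and Tlr7 had no window, and Cd14 was left out of the search. They are printed, 5′ to 3′ on the gene's strand, for the searched genes that changed most often below and for Tlr6, the neighbour of Tlr1. Cd14, which passed as often as Myd88, is therefore not among them. Each was searched on both strands for an interferon response element core (GAAANNGAA), an NF-κB core (GGANTTTCC) and a PU.1 core (GAGGAAGT), and capitals mark matches. Tlr1 (chr5:64933509-64933808, minus strand) held a PU.1 core, Myd88 (chr9:119339969-119340268, minus strand) held an interferon response core and, on the opposite strand, an NF-κB core, Tlr6 (chr5:64959117-64959416, minus strand) held 2 overlapping interferon response cores on the opposite strand, and Tlr2 (chr3:83841559-83841858, minus strand) held none of these letters.
Tlr1: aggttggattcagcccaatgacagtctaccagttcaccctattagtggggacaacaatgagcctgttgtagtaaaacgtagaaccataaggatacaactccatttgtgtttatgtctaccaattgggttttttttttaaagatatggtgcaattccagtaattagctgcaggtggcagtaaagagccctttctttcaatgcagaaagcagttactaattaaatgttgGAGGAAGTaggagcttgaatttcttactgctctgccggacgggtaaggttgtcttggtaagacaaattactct
Tlr2: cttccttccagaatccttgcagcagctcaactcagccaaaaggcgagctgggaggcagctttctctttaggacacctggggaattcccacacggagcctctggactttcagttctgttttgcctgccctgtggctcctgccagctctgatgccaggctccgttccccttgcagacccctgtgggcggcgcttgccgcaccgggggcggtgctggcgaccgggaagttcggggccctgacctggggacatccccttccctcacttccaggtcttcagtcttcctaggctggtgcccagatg
Tlr6: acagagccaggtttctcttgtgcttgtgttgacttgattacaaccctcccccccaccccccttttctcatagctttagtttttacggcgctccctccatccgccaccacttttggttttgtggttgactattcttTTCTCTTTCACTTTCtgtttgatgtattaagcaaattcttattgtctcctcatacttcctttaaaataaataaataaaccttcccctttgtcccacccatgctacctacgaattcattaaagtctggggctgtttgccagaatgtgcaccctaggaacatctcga
Myd88: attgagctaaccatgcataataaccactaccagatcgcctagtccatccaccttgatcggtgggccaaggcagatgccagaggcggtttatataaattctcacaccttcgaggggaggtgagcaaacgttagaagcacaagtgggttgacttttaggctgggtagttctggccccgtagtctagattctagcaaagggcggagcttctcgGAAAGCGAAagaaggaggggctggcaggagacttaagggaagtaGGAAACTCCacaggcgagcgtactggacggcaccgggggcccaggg
Of the others, Tlr3 held an NF-κB core and Tlr9 a PU.1 core, and Tlr13 and the second starts of Tlr1 and Tlr6 held none. Across all 32851 promoter windows of this length, 8.56% held the interferon response core, 1.25% the NF-κB core and 3.20% the PU.1 core.

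In naive WT microglia, with levels divided by exon length so that genes can be set side by side, Cd14 was the most abundant at 117.6 CPM per kb, followed by Tlr7 at 103.4 and Tlr13 at 69.5. Tlr9 stood at 46.7 CPM per kb, Tlr2 at 36.6, Myd88 at 24.2, Tlr4 at 19.6 and Tlr3 at 17.7. The partners of Tlr2 were lowest, Tlr6 at 10.3 and Tlr1 at 9.45 CPM per kb. No gene moved far over the 30 libraries: the highest library was 2.70 times the lowest for Tlr2, 2.56 for Tlr9, 2.50 for Tlr3 and 2.47 for Tlr1, and 1.70 for Myd88, the narrowest range. When the 8 groups were ordered by mean CPM, neighbouring groups overlapped for every gene but 3: Tlr1, where all day 21 KO libraries lay above all day 35 KO libraries, Tlr2, where all day 35 old libraries lay above all day 35 WT libraries, and Cd14, where all day 21 KO libraries lay below all day 21 WT libraries. Such gaps were not counted over all genes, so they cannot be read as particular to these 3.

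**Figure D2:**
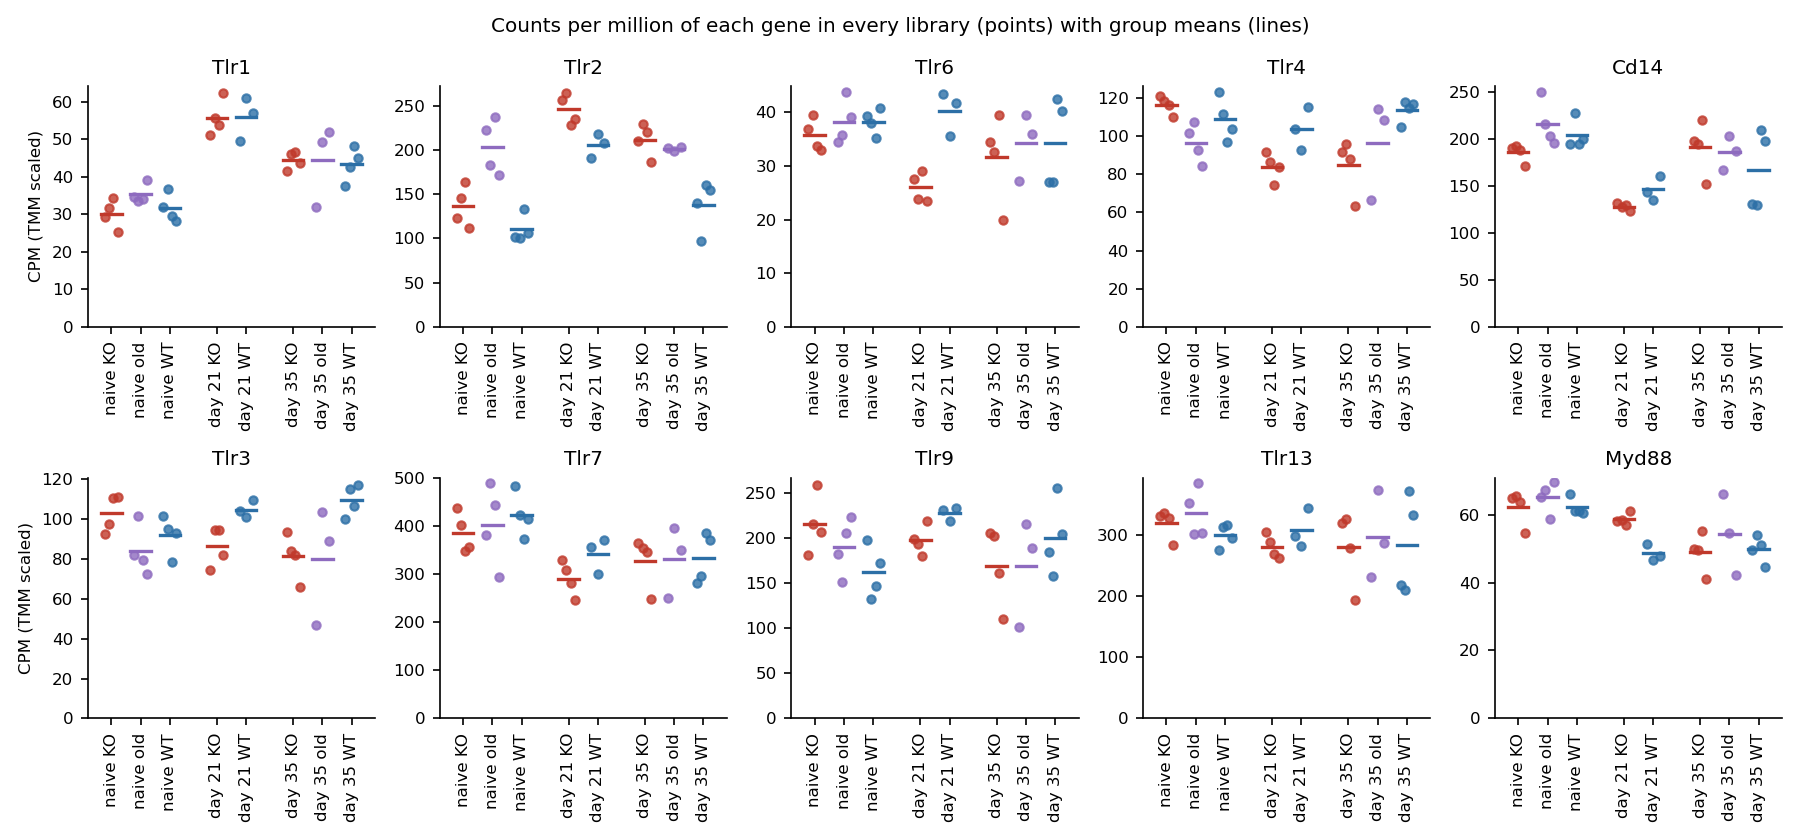
CPM of each of the 10 genes in each of the 30 libraries, by group; points are libraries and lines group means. By group mean, Tlr1 and Tlr2 are lowest in naive WT and naive KO mice, Tlr1 is highest in day 21 WT and KO mice and Tlr2 in day 21 KO mice, and Cd14 is lowest at day 21 in KO and WT mice.

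In WT microglia, EAE went with more Tlr1 and Tlr2 and with less Cd14 and Myd88. At day 21 against naive, 4 of the 10 genes passed the test, 2 higher and 2 lower, where 21.5% of all genes did (edgeR's quasi-likelihood test, Benjamini-Hochberg adjusted p under 0.05). Tlr2, the shared subunit of the lipopeptide receptors, had 191.4, 218.3 and 207.85 CPM in day 21 WT libraries, against 101.3, 100.9, 132.8 and 106.2 CPM in naive WT libraries. The groups did not overlap, and the fold was 1.87 (log2 0.90, SE 0.141, adjusted p = 4.89e-05). Tlr1, its partner for triacylated lipopeptides, had 49.6, 60.9 and 57.0 CPM at day 21 against 31.9, 36.8, 29.5 and 28.2 CPM in naive libraries. These did not overlap either, with a log2 fold change of 0.83 (SE 0.134, adjusted p = 6.80e-05). Tlr6, the partner for diacylated lipopeptides, overlapped between the groups (log2 0.07, 95% confidence interval -0.28 to 0.43). In bulk RNA, fewer cells that express a gene and less of its RNA per cell cannot be told apart.

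The lipopolysaccharide receptor split in WT mice. Cd14 (ENSMUSG00000051439, chr18:36725067-36726798), which hands lipopolysaccharide to TLR4, had 143.5, 135.3 and 160.3 CPM in day 21 WT libraries, against 193.9, 227.0, 194.1 and 199.9 CPM in naive WT libraries. Every day 21 library was lower, and Cd14 fell by 0.48 on the log2 scale (SE 0.138, adjusted p = 0.0140). Tlr4 itself gave a log2 fold change of -0.07 (interval -0.36 to 0.22) and the groups overlapped. Myd88 had 51.4, 46.7 and 47.8 CPM at day 21 against 66.2, 61.2, 61.0 and 60.4 CPM in naive WT libraries, again without overlap, and fell by 0.36 on the log2 scale (SE 0.115, adjusted p = 0.0254). Both falls were near the threshold: leaving out naive WT library 2 or day 21 WT library 1 or 2 gave Cd14 an adjusted p of 0.0561 to 0.0841, and leaving out naive WT library 1 or 2 or day 21 WT library 2 or 3 gave Myd88 one of 0.0581 to 0.107. Of the endosomal receptors, Tlr9 gave 0.49 (interval 0.05 to 0.93, adjusted p = 0.0990), Tlr3 0.19, Tlr13 0.04 and Tlr7 -0.31 on the log2 scale, and none passed. Tlr9 passed without day 35 old library 1 (adjusted p = 0.0462), which is in neither group, and with the 7 libraries fitted alone (adjusted p = 0.0137).

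Marker RNA of other cells moved in the same comparison. All 10 neutrophil markers, 4 of 8 monocyte markers and 6 of 7 border macrophage markers fell in WT mice at day 21, and 3 of 7 microglial markers fell. The summed monocyte markers were 175 to 470 CPM in day 21 WT libraries against 131 to 1747 CPM in naive WT libraries, and the summed border macrophage markers 14.3 to 63.6 CPM against 263 to 386 CPM. Cd14 and Tlr2 are also expressed by neutrophils and monocytes, and the part of these cells in the Cd14 and Tlr2 changes was not tested. Xist was 1457 to 2045 CPM in day 21 WT against 627 to 1138 CPM in naive WT libraries, and its part was not tested either.

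At day 35, Tlr1 was again higher and Myd88 again lower in WT mice. Against naive WT, 2 of 10 genes passed where 19.1% of all genes did. Tlr1 had 37.5, 42.8, 48.2 and 45.03 CPM in day 35 WT libraries and rose by 0.46 on the log2 scale over the naive WT libraries given above (SE 0.126, adjusted p = 0.0119), with every day 35 library above every naive one. Myd88 had 49.8, 54.0, 51.2 and 44.6 CPM, all below the naive libraries, and fell by 0.32 (SE 0.106, adjusted p = 0.0336); without naive WT library 1, 2 or 4 or day 35 WT library 1 or 4 its adjusted p was 0.0510 to 0.142. Tlr2 had 139.85, 97.7, 160.8 and 155.3 CPM, which overlapped the naive range, for a log2 fold change of 0.33 (interval 0.06 to 0.60, adjusted p = 0.0819). Tlr2 passed without day 35 WT library 2 (adjusted p = 0.0161) or naive WT library 3 (adjusted p = 0.0332), and Cd14, at -0.29, passed without day 35 WT library 3 (adjusted p = 0.0214). Day 35 WT libraries 1 and 2 held less Cd14 (130.1 and 129 CPM) than libraries 3 and 4 (209 and 197 CPM), and were likewise lower for Tlr6, Tlr7 and Tlr13. As both time points are set against the same 4 naive WT libraries, they are not separate evidence. All 10 neutrophil markers, 4 of 8 monocyte, 6 of 7 border macrophage and 2 of 7 microglial markers fell here too, and their part was not tested.

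Between WT day 35 and WT day 21, none of the 10 genes passed where 0.0648% of all genes did. By unadjusted p under 0.05 there were 2, Tlr2 (log2 fold change -0.57, adjusted p = 0.104) and Tlr1 (-0.37, adjusted p = 0.455), and DESeq2 called 1, Tlr2. All 4 day 35 WT libraries lay below all 3 day 21 WT libraries for both genes. How many of all genes had an unadjusted p under 0.05 was not counted, in this or in the later comparisons.

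In KO microglia, EAE at day 21 went with the same rise of Tlr1 and Tlr2, and with less Tlr4, Tlr6, Tlr7 and Cd14. Against naive KO, 6 of 10 genes passed, 2 higher and 4 lower, where 45.2% of all genes did. Tlr2 had 257.0, 264.2, 228.4 and 235.6 CPM in day 21 KO libraries, against 123.4, 145.9, 163.7 and 111.7 CPM in naive KO libraries. All day 21 libraries were higher, by 0.85 on the log2 scale (SE 0.132, adjusted p = 6.70e-06). Tlr1 had 51.2, 55.6, 53.9 and 62.4 CPM at day 21 against 29.2, 31.8, 34.4 and 25.2 CPM in naive KO libraries, without overlap, and rose by 0.89 (SE 0.125, adjusted p = 1.71e-06). Tlr6 went the other way than its neighbour, with 27.6, 23.9, 29.1 and 23.6 CPM at day 21 against 36.8, 39.4, 33.7 and 33.0 CPM, and fell by 0.46 on the log2 scale (SE 0.164, adjusted p = 0.0246). Its groups did not overlap, but without naive KO library 1 or 2 or day 21 KO library 2 or 4 its adjusted p was 0.0502 to 0.0726.

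Tlr4 and Cd14 both fell in KO mice at day 21. Tlr4 had 91.7, 86.4, 74.2 and 83.7 CPM in day 21 KO libraries, against 120.95, 118.2, 116.4 and 109.98 CPM in naive KO libraries, and fell by 0.47 on the log2 scale (SE 0.131, adjusted p = 0.00435). Cd14 had 131.4, 127.1, 129.1 and 122.7 CPM against 190.4, 191.8, 187.85 and 171.3 CPM, and fell by 0.54 (SE 0.128, adjusted p = 0.00106). Neither gene overlapped between the groups. Tlr7, the single-stranded RNA receptor, had 328.02, 307.01, 280.98 and 245.1 CPM at day 21 against 436.6, 400.5, 347.0 and 355.5 CPM in naive KO libraries, and fell by 0.41 (SE 0.153, adjusted p = 0.0303) without overlap; leaving out naive KO library 1 or 2 or day 21 KO library 3 or 4 gave 0.0646 to 0.107. Tlr3 (log2 -0.25), Tlr9 (-0.13), Tlr13 (-0.19) and Myd88 (-0.08) did not pass. With the 8 libraries fitted alone, Tlr3 (adjusted p = 0.0312) and Tlr13 (adjusted p = 0.0457) passed. In the same comparison 6 of 7 microglial markers and all 10 neutrophil markers fell, and 1 of 8 monocyte markers rose. The summed monocyte markers were 2045 to 2809 CPM in day 21 KO against 29.9 to 435 CPM in naive KO libraries. Most of that sum was Fn1, at a mean of 2085 CPM and 161.9 CPM. Xist was 70.1 to 774 CPM in day 21 KO against 92.2 to 1426 CPM in naive KO libraries. The summed Y-linked genes were 160.2 to 218.2 CPM against 14.2 to 174.8 CPM. The part of these cells and of sex in these changes, that of X-linked Tlr7 included, was not tested.

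At day 35, 4 of 10 genes passed in KO mice against naive KO, where 21.4% of all genes did. Tlr2 had 209.75, 229.4, 220.2 and 186.4 CPM in day 35 KO libraries, all above the naive KO range, and rose by 0.63 on the log2 scale (SE 0.132, adjusted p = 0.00125). Tlr1 had 41.6, 46.0, 46.6 and 43.8 CPM, also above all naive KO libraries, and rose by 0.56 (SE 0.125, adjusted p = 0.00235). Tlr4, with 92.0, 96.0, 88.0 and 63.2 CPM, lay below all naive KO libraries and fell by 0.46 (SE 0.130, adjusted p = 0.0131). Myd88, with 49.9, 49.6, 55.3 and 41.0 CPM, overlapped the naive KO range of 54.7 to 65.5 CPM and fell by 0.35 (SE 0.105, adjusted p = 0.0188). Without day 35 KO library 4, the lowest for both genes, the adjusted p was 0.0829 for Tlr4 and 0.104 for Myd88, and without naive KO library 1 or 2 it was 0.0516 and 0.0581 for Myd88. Tlr4 also missed the threshold when day 35 WT library 3 was counted as KO, as 1 of its labels has it (adjusted p = 0.0569). Tlr3 gave -0.34 (adjusted p = 0.106), and passed without day 35 old library 1 (adjusted p = 0.0196) and with the 8 libraries fitted alone (adjusted p = 0.0438). In this comparison 5 of 7 microglial and 5 of 7 border macrophage markers fell, 1 microglial marker and 1 of 8 monocyte markers rose, and no neutrophil marker passed. All tested markers of astrocytes (5), oligodendrocytes (4), neurons (4) and erythroid cells (4) rose. Their part in these changes was not tested.

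Cd14 alone passed between KO day 35 and KO day 21, where 24.9% of all genes did. It had 197.6, 194.7, 220.2 and 151.6 CPM at day 35, all above the day 21 values given above, and rose by 0.58 on the log2 scale (SE 0.128, adjusted p = 0.00144). Cd14 was thus lower at day 21 than in naive KO mice and gave 0.04 at day 35 against naive (interval -0.22 to 0.30). Tlr1 (log2 -0.33, adjusted p = 0.0514) just missed the threshold, and leaving out any of 7 single libraries brought it to 0.0161 to 0.0496: naive KO library 3 or 4, naive old library 4, day 35 old library 1, 2 or 3, or day 35 WT library 1. Myd88 (-0.26, adjusted p = 0.0672) passed without day 35 KO library 3 or day 35 old library 1 or 3 (adjusted p of 0.0358 to 0.0395), and Tlr6 (0.28) passed without day 35 KO library 4 (adjusted p = 0.0297). Here 6 of 7 microglial, 7 of 10 neutrophil, 4 of 4 neuron and 4 of 4 erythroid markers rose at day 35. Meanwhile 2 of 8 monocyte, 3 of 7 border macrophage and 5 of 5 tested T and NK cell markers fell. The part of all these cells was not tested.

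**Figure D3:**
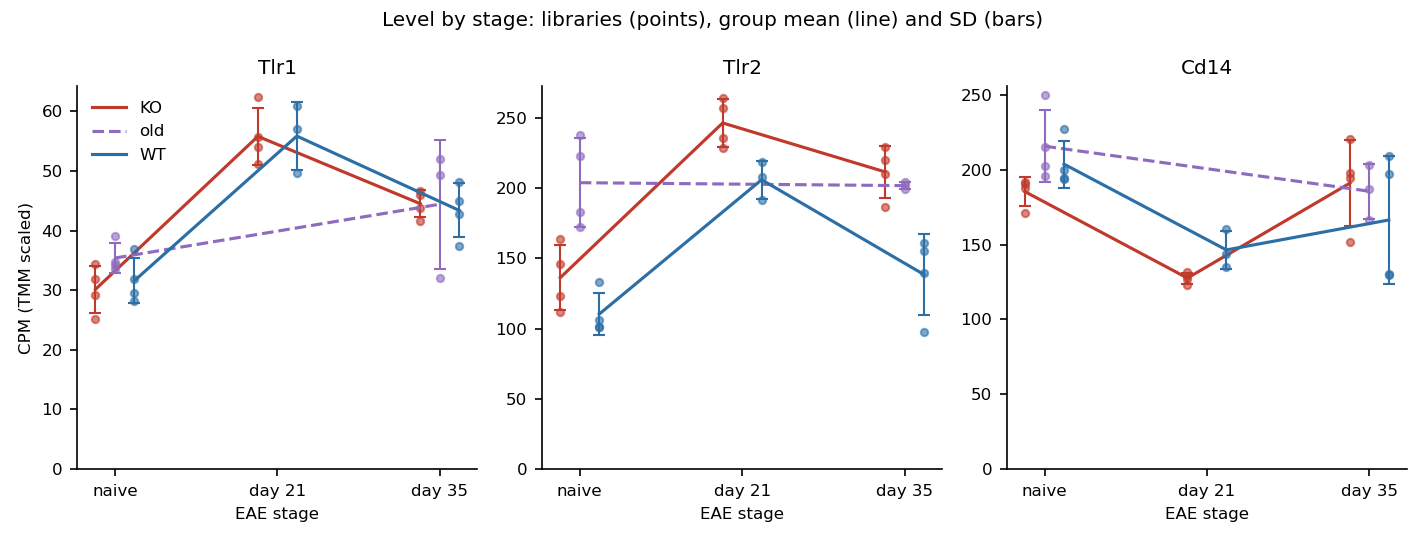
CPM of Tlr1, Tlr2 and Cd14 in naive, day 21 and day 35 mice, for KO, old and WT libraries; points are libraries, lines join group means and bars are SD, and old mice have no day 21 group. Cd14 is lowest at day 21 in KO and WT mice, and Tlr2 stays near 200 CPM in old mice at both stages.

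Of the other endosomal receptors, Tlr13, the ribosomal RNA receptor, averaged 279 CPM in day 35 KO and 335 CPM in naive old libraries, its lowest and highest groups, and Tlr9 averaged 228.5 CPM in day 21 WT and 162.5 CPM in naive WT libraries, its highest and lowest groups. Tlr3, Tlr9 and Tlr13 passed in none of the 16 contrasts of edgeR's quasi-likelihood fit over all libraries, though each passed in at least 1 with only the groups compared in the fit, and by unadjusted p under 0.05 Tlr3 and Tlr9 had 4 contrasts each and Tlr13 had 0.

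The direct comparison of libraries labelled KO with those labelled WT at each stage gave few differences in these genes in the fit over all libraries. In naive mice none of the 10 passed where 0.288% of all genes did. By unadjusted p under 0.05 there were 2, Tlr2 and Tlr9, and DESeq2 called 0. Tlr2 had a log2 fold change of 0.30 (interval 0.03 to 0.57, adjusted p = 0.486), with the KO and WT values given above overlapping. Tlr9, the DNA receptor, had 181.1, 216.25, 259.65 and 207.4 CPM in naive KO libraries against 197.9, 132.3, 147.0 and 172.9 CPM in naive WT libraries, also overlapping (log2 0.41, interval 0.00 to 0.82, adjusted p = 0.532). Summed neutrophil markers were 114.7 to 2574 CPM in naive KO and 1524 to 16265 CPM in naive WT libraries, and their part was not tested.

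At day 21, Tlr6 was the 1 gene of 10 that passed between KO and WT, where 19.0% of all genes did, so its call is 1 among many. It had 27.6, 23.9, 29.1 and 23.6 CPM in day 21 KO libraries, against 43.4, 35.6 and 41.8 CPM in day 21 WT libraries. All KO libraries were lower, and Tlr6 fell by 0.63 on the log2 scale (SE 0.175, adjusted p = 0.0128). Without day 21 WT library 1 its adjusted p was 0.0528, and without library 3 it was 0.0586. Tlr2 and Myd88 were higher in every KO library, and Tlr3, Tlr4, Tlr6 and Cd14 lower. How many of all genes also separated these groups was not counted, so this cannot be read as particular to these genes. For Tlr3 the CPM were 74.6, 94.8, 94.5 and 82.1 in day 21 KO against 101.2 to 109.6 in the 3 day 21 WT libraries (log2 -0.28, adjusted p = 0.240), and Tlr4 gave -0.31 (adjusted p = 0.126). With the 7 day 21 libraries fitted alone, 8 of the 10 genes passed, all but Tlr1 and Tlr13. That fit has its own filter, scaling and estimate of spread, and which of these moved the calls was not tested. The share of all genes that passed in it was not kept, so this count has no share to stand beside. Tlr4 passed also without day 35 old library 1 (adjusted p = 0.0474). In this comparison 6 of 7 microglial markers fell, and 4 of 8 monocyte, 3 of 7 border macrophage and 5 of 5 T and NK cell markers rose. The summed monocyte markers were 2045 to 2809 CPM in KO against 175 to 470 CPM in WT libraries. Most of that sum was Fn1, which averaged 2085 CPM in KO and 283.3 CPM in WT libraries. Female and male RNA also moved with this comparison: Xist was 70.1 to 774 CPM in KO against 1457 to 2045 CPM in WT libraries, and the summed Y-linked genes 160.2 to 218.2 CPM in KO against 48.8 to 63.8 CPM in WT libraries, without overlap. The part of these cells and of sex in the differences was not tested.

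At day 35, Tlr2 was the 1 gene of 10 that passed between KO and WT, where 2.62% of all genes did. With 209.75, 229.4, 220.2 and 186.4 CPM in day 35 KO libraries against 139.85, 97.7, 160.8 and 155.3 CPM in day 35 WT libraries, it was higher in every KO library and rose by 0.61 on the log2 scale (SE 0.132, adjusted p = 0.0155). It missed the threshold without day 35 WT library 2 (log2 0.48, adjusted p = 0.0860) or day 35 KO library 3 (0.59, adjusted p = 0.0527). Tlr3 and Tlr4 did not pass but were lower in every KO library. Tlr3 had 93.4, 84.2, 82.0 and 66.2 CPM in KO against 100.4, 115, 106 and 118 CPM in WT libraries (log2 -0.43, adjusted p = 0.119). Tlr4 had the KO values given above against 105, 118, 115 and 117 CPM in WT libraries (log2 -0.42, adjusted p = 0.0765). Without day 35 old library 1, both passed, with an adjusted p of 0.0204 for Tlr3 and 0.0190 for Tlr4, and Tlr3 passed with the 8 libraries fitted alone (adjusted p = 0.0442). Of the marker lists, 5 of 10 neutrophil markers rose. The summed monocyte markers were 956 to 1358 CPM in KO against 98.9 to 287 CPM in WT libraries, and no monocyte marker passed. Most of that sum was 1 gene, Fn1, which averaged 995.1 CPM in KO and 164.5 CPM in WT libraries. The part of these markers' cells in the Tlr2 difference was not tested, and EAE scores did not overlap between these groups.

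**Figure D4:**
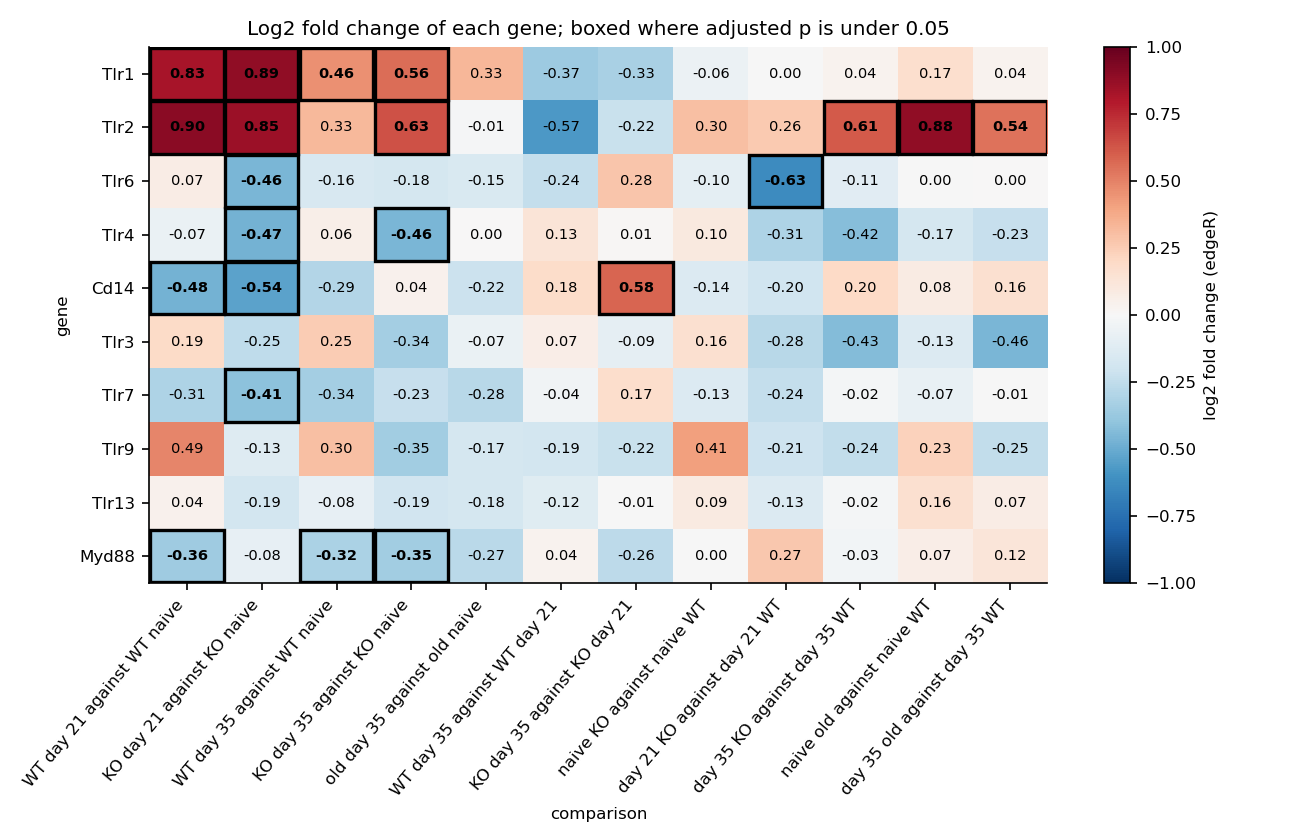
Fitted log2 fold changes of the 10 genes (rows) in the comparisons (columns), coloured by value; boxed cells passed at an adjusted p under 0.05. Tlr1 and Tlr2 are positive in each EAE comparison with naive mice in KO and WT, and Tlr3, Tlr9 and Tlr13 passed in none in this fit over all libraries.

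Whether EAE changed these genes differently in KO and WT mice was tested as an interaction, and none of the 10 passed at day 21 (9.68% of all genes did), at day 35 (0.367%) or for the change between the 2 days (2.67%). By unadjusted p under 0.05 there were 3 at day 21, Tlr6 (log2 difference -0.53, interval -1.02 to -0.04), Tlr9 (-0.62) and Tlr4 (-0.40), 3 at day 35, Tlr3 (-0.59, adjusted p = 0.158), Tlr4 (-0.52, adjusted p = 0.154) and Tlr9 (-0.65, adjusted p = 0.227), and 2 for the change between the days, Tlr6 (0.51) and Cd14 (0.40). The share of all genes at that unadjusted threshold was not counted, so these counts have none to stand beside. DESeq2 called 0 in each. Without day 35 old library 1, Tlr3 and Tlr4 passed at day 35 (adjusted p of 0.0248 and 0.0388). With the 15 naive and day 21 KO and WT libraries fitted alone, 4 genes passed at day 21, Tlr3, Tlr4, Tlr6 and Tlr9. The share of all genes that passed in that fit was not kept. The fall of Tlr4, Tlr6 and Tlr7 in KO but not in WT mice at day 21 is therefore not shown to be a difference between the genotypes in the fit over all libraries. For Tlr2 the interaction at day 21 was -0.05 (interval -0.44 to 0.35) and for Tlr1 0.06 (interval -0.31 to 0.43).

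Libraries of old mice held more Tlr2 than WT libraries, and no other of these genes passed. Cx3cr1, where the Cre sits, was 3916 to 4554 CPM in naive old against 948 to 3585 CPM in naive WT libraries. As the Cre status of old mice was not stated, age cannot be told apart from the Cre allele here. In naive mice Tlr2 was the 1 gene of 10 that passed between old and WT, where 8.18% of all genes did. It had 222.6, 182.65, 237.9 and 171.97 CPM in naive old libraries, against 101.3, 100.9, 132.8 and 106.2 CPM in naive WT libraries. All old libraries were higher, by a fold of 1.85 (log2 0.88, SE 0.133, adjusted p = 0.000115), and the call held without any 1 library. Tlr1 gave 0.17, Tlr6 -0.00, Tlr4 -0.17, Cd14 0.08 and Myd88 0.07 on the log2 scale, each with an interval that spans 0. No marker of the neutrophil, monocyte, border macrophage or microglial lists passed in this comparison; the summed neutrophil markers were 6852 to 13042 CPM in naive old against 1524 to 16265 CPM in naive WT libraries. The naive WT libraries are shared with the naive KO comparison.

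At day 35, Tlr2 had 201.96, 199.1 and 203.95 CPM in old libraries against 139.85, 97.7, 160.8 and 155.3 CPM in WT libraries. It was again the 1 gene of 10 that passed, where 9.45% of all genes did, with a log2 fold change of 0.54 (SE 0.141, adjusted p = 0.0169). The call was lost without day 35 old library 1 (log2 0.54, adjusted p = 0.340) or day 35 WT library 2 (0.41, adjusted p = 0.0657), and with the 7 libraries fitted alone (adjusted p = 0.356). All 10 neutrophil and 6 of 8 monocyte markers rose, with summed neutrophil markers of 71.8 to 31662 CPM in old against 4.38 to 39.0 CPM in WT libraries, and their part in the Tlr2 difference was not tested. Tlr3 had 46.99, 103.7 and 88.9 CPM in old libraries against the WT values given above (log2 -0.46, adjusted p = 0.0789), and passed without day 35 old library 2 (adjusted p = 0.00750). Old library 1 was lowest of the 3 for Tlr1, Tlr3, Tlr4, Tlr6, Tlr7, Tlr9, Tlr13 and Cd14.

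EAE in old mice changed none of the 10 genes by the test, where 18.4% of all genes passed. By unadjusted p under 0.05 there were 2, Tlr1 (log2 0.33, adjusted p = 0.0809) and Myd88 (-0.27, adjusted p = 0.0972), and DESeq2 called 0. Every gene overlapped between the groups. In this comparison 5 of 7 border macrophage and 3 of 7 microglial markers fell and 4 of 5 astrocyte markers rose, and their part was not tested. Tlr1 had 32.0, 49.2 and 52.0 CPM in day 35 old libraries against 34.7, 33.5, 34.2 and 39.1 CPM in naive old libraries, and without day 35 old library 1 it passed (log2 0.51, adjusted p = 0.00577), as did Myd88 (-0.43, adjusted p = 0.0120). Tlr2 gave -0.01 (interval -0.30 to 0.27), and averaged 203.8 CPM in naive old and 201.7 CPM in day 35 old libraries. The age by EAE interaction passed for none of the 10 where 0.0432% of all genes did, with 0 at unadjusted p under 0.05 and 0 by DESeq2; for Tlr2 it was -0.34 (interval -0.74 to 0.06, adjusted p = 0.530).

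Among the 9 lists of other pathway genes, the targets had the median furthest from 0 at day 21 against naive, in KO and in WT mice. The counts of these lists stand beside 45.2% of all genes called in KO and 21.5% in WT mice at day 21, and the shares of several lists lie near these. Of 10 target genes of the receptors, 5 rose and 0 fell in WT day 21 against naive (median log2 fold change 2.17, against -0.01 over all genes tested), and 9 rose and 1 fell in KO day 21 against naive (3.06, against 0.01). Cxcl10, a chemokine, averaged 138.8 ± 9.66 CPM in day 21 KO, 9.28 ± 3.47 CPM in naive KO, 89.7 ± 1.22 CPM in day 21 WT and 6.67 ± 5.98 CPM in naive WT libraries (SD, n = 4, and 3 in day 21 WT), and rose by 3.91 in KO and 3.69 in WT mice. Ifnb1, the interferon beta gene, was among those called but low, at 9.70 CPM in day 21 KO, 0.0885 CPM in naive KO, 13.4 CPM in day 21 WT and 0.739 CPM in naive WT libraries. Of 8 transcription factors, 2 rose and 2 fell in KO mice and 2 rose and 0 fell in WT mice. Irf7, which drives interferon genes downstream of TLR7 and TLR9, averaged 170.7 CPM in day 21 KO against 16.2 CPM in naive KO libraries and 66.4 CPM in day 21 WT against 14.8 CPM in naive WT libraries, and rose by 3.40 and 2.15. Its interaction of genotype with EAE at day 21 passed (1.25, SE 0.360, adjusted p = 0.0315). In that interaction 5 of 7 microglial markers fell and 1 rose, and 5 of 8 monocyte markers rose. The part of these cells and of sex was not tested.

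Of 16 kinases and ubiquitin ligases, 8 rose and 2 fell in KO and 5 rose and 2 fell in WT mice at day 21, and Tbk1 (0.44) and Ikbkb (0.55) in KO and Irak1 (0.38) and Traf3 (0.47) in WT mice were among those that rose. Of 12 inhibitors, 6 rose and 2 fell in KO and 4 rose and 2 fell in WT mice, with Tnfaip3, which removes ubiquitin from NF-κB signalling proteins, at 0.99 in KO and 0.82 in WT mice. Of 5 other adaptors, Pik3ap1 rose in KO and WT mice (0.42 and 0.53), while Ticam1 (-0.39) and Ticam2 (-0.63), the TRIF and TRAM genes, fell in KO mice and Tirap (-0.46), which links MyD88 to TLR2 and TLR4, fell in WT mice. For Ticam2 the interaction at day 21 passed (-0.67, adjusted p = 0.0174), and the part of other cells and of sex was not tested here either. Of 8 co-receptors, chaperones and trafficking genes, 2 rose and 4 fell in KO and 0 rose and 3 fell in WT mice. Ly96, the MD-2 gene, averaged 6.48 CPM in day 21 KO against 13.9 CPM in naive KO and 8.58 CPM in day 21 WT against 14.9 CPM in naive WT libraries, and fell by 1.10 and 0.79 on the log2 scale; Cnpy3, a chaperone of several Toll-like receptors, fell by 0.68 in KO and 0.55 in WT mice. Of 4 other receptors, 1 rose and 1 fell in KO and 2 rose and 1 fell in WT mice. Tlr5, the flagellin receptor, fell by 2.38 in KO and 1.62 in WT mice, with 4.97 CPM in day 21 KO against 26.0 CPM in naive KO libraries, and Tlr12 rose by 0.89 in WT mice. Of 5 endosomal proteases, Lgmn fell in KO (-0.59) and Ctsb rose in WT mice (0.57). Of 6 own ligands tested, 1 rose and 2 fell in KO and 0 rose and 2 fell in WT mice; the 2 that fell, S100a8 and S100a9, also belong to the neutrophil list.

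Between KO and WT, no role list had a call in naive mice, where 0.288% of all genes passed. At day 21, where 19.0% of all genes passed, 3 of 10 targets rose and 1 fell, 2 of 12 inhibitors rose and 1 fell, Cd36, a co-receptor of TLR2, rose by 1.71 and Irf7 by 1.36, and none of the 5 adaptors or 16 kinases and ligases passed. Of 4 other receptors 1 rose and 1 fell, and 1 of 6 own ligands rose. The part of the cell marker and sex differences between these groups, given above, was not tested. At day 35 (2.62% of all genes), 3 of 10 targets rose, among them Tnf (0.97) and Cxcl10 (1.30), and 2 of 12 inhibitors, Nfkbia (0.96) and Tnfaip3 (0.76), both of which NF-κB itself induces. Nfkbia averaged 259 ± 29.3 CPM in day 35 KO against 133 ± 18.4 CPM in day 35 WT libraries (SD, n = 4 each). Of 6 own ligands 2 rose as well. In this comparison 5 of 10 neutrophil markers rose, and their part was not tested. EAE scores did not overlap between these groups, so genotype cannot be told apart from severity. In naive old against naive WT mice (8.18% of all genes), 2 of 10 targets rose, Tnf by 1.72 and Ptgs2 by 1.51, with 3 of 12 inhibitors, Nfkbia (0.72), Tnip1 (0.70) and Tnfaip3 (0.66), and 2 of 5 endosomal proteases, Ctsb (0.96) and Ctsl (0.57), which cut the endosomal receptors into their active form. At day 35 in old against WT mice (9.45% of all genes) 2 targets and 2 inhibitors rose, and 4 own ligands rose, among them S100a8 and S100a9. Tlr5 was lower in both day 35 comparisons, by 0.79 on the log2 scale in KO and 0.74 in old mice.

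Across the 30 libraries the genes fell into loose groups, described here as correlations of log2 CPM over libraries that share their groups and stages. Tlr3 and Tlr4 (r = 0.78), Tlr6 and Tlr7 (0.75), Tlr6 and Tlr13 (0.73) and Tlr4 and Tlr7 (0.71) were the most alike of the 45 pairs. Tlr1 and Tlr2 reached 0.64. Tlr2 and Tlr4 (-0.54), Tlr1 and Myd88 (-0.52) and Tlr1 and Cd14 (-0.51) were the most opposed. Of all genes tested, those most like Tlr2 were Lgals3bp (r = 0.93), P2ry2 and Axl (both 0.92), and those most like Tlr1 were H2-T23 (0.90), Usp12 (0.87) and Fgl2 (0.86). The closest to the others were Vhl for Tlr4 (0.88), Mgat4a for Tlr3 (0.88), Ehd4 for Tlr7 (0.88), Heatr5a for Tlr9 (0.88), Ncstn for Tlr13 (0.88), Fam210b for Tlr6 (0.83), Ephx1 for Cd14 (0.89) and Uba1 for Myd88 (0.86).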

How the data were processed

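Microglial RNA libraries (SMARTer Stranded Total RNA Pico kit, per the labels) were analysed from 1 deposited table of raw counts per gene; CASAVA, bcl2fastq, STAR and GRCm38 are named in the submitters' processing notes, while the program that counted reads, whether it used strand, and its annotation were not given in the sources used here. If strand was not used, reads of overlapping genes on opposite strands cannot be told apart. The deposited EAE score and the other values per sample (RNA integrity, index) came from the authors' sample sheet. The table has 32 count columns, of which 2 matched no sample and were not used. Columns carry sample names, and that sheet gives the plate well of each name. Titles were joined to wells by reading the number in the title as a count of wells down the plate's columns. This reading is an inference, under which all 30 titles fell in a well of their group. Symbols came from the GENCODE M21 annotation.

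Counts were analysed in R 4.3.3 with edgeR 4.0.16: genes with low counts were filtered (filterByExpr, minimum count 10, minimum total 15), libraries scaled by TMM, and 1 mean per group fitted over all 30 libraries (22 residual degrees of freedom) with robust quasi-likelihood dispersion. The 16 contrasts were adjusted by Benjamini-Hochberg over all 13880 genes tested and called at an adjusted p under 0.05; intervals are 95% confidence intervals of the log2 fold change. Alternatives were RLE factors, no filter, DESeq2 1.42.0, only the groups compared, the i5 index as a block, day 35 WT library 3 counted as KO, each library left out, and, added after seeing the data, 3 libraries left out together.

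The 10 genes and the role and marker lists were chosen with earlier results of these data known. By rule, all 10 genes are named in every comparison, and of other pathway genes at most 3 per role list and comparison, the called ones of lowest adjusted p; of the genes most like each member, the 3 with the highest correlation of log2 CPM (prior count 2). Replicate numbers follow accession order and pair no libraries.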

Additional observations from a re-analysis of the deposited data

Results flagged for a closer look

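In 5 of 60 groups of 4 libraries tested, 1 library lay far from the other 3 for its distance within the group's range, where chance gives about 1 in 20 such groups. Tlr2 was 132.8 CPM in naive WT library 3, above the other naive WT libraries. Tlr7 was 247.8 CPM in day 35 KO library 4 and Tlr13 was 283.0 CPM in naive KO library 4, each below the rest of its group. Myd88 was 54.7 CPM in naive KO library 4, below its group, and 66.16 CPM in naive WT library 1, above its group. Groups of 3 libraries were not tested.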

How the results depend on the processing

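No alternative turned the direction of a call, and RLE scaling changed none of the 21 calls. With only the groups compared in the fit, the number of the 10 genes that passed was 8 for day 21 KO against WT, 2 for day 35 KO against WT, 5 for WT day 21, 8 for KO day 21 and 5 for KO day 35 against naive, 2 for KO day 35 against day 21, 0 for day 35 old against WT and 4 for the interaction at day 21. Without the filter, 1 gene passed in WT day 35 and 3 in WT day 21 against naive, Myd88 being lost in both. DESeq2 called 1 gene in WT day 35 against day 21. The i5 index block, and day 35 WT library 3 counted as KO, each gave 2 for KO day 35 against day 21, and the second also gave 3 each for WT day 35 and KO day 35 against naive. With day 35 old library 1, day 35 KO library 4 and day 35 WT library 3 left out together, a choice made after seeing the data (the values of these 10 genes included), the counts were 3 for day 21 KO against WT, 2 for day 35 KO against WT, 5 and 4 for WT day 21 and day 35 against naive, 7 and 3 for KO day 21 and day 35 against naive, 1 for WT day 35 against day 21, 3 for KO day 35 against day 21, 0 for day 35 old against WT, 2 for old day 35 against naive, and 4, 1 and 2 for the interactions at day 21, at day 35 and for the change between the days. Leaving out each library in turn gave 0 to 2 for day 21 KO against WT, 0 to 3 for day 35 KO against WT, 2 to 5 and 1 to 3 for WT day 21 and day 35 against naive, 4 to 6 and 2 to 5 for KO day 21 and day 35 against naive, 1 to 3 for KO day 35 against day 21, 0 to 2 for day 35 old against WT, 0 to 2 for old day 35 against naive and 0 to 2 for the interaction at day 35, with no change in the other 6 comparisons. The share of all genes that passed was not kept for these settings. The counts therefore do not show whether the moves concern these genes or all genes, and the cause of the moves was not tested. Replicate numbers follow accession order, so no replicate block was fitted; the i5 index block, which shares 4 indices across the groups, changed the call of 1 of the 10 genes, Tlr1 in KO day 35 against day 21 (adjusted p = 0.0425). The lowest count of any of the 10 genes in a library was 129, and how much of the spread between libraries is counting error was not tested.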
